A study of Homo sapiens with 6 samples.

Results

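The genes described here are CD34 and 9 other genes that mark, or are tied to, leukemia stem cells, namely CD7, CD99, ADGRG1, PROM1, THY1, MECOM, MN1, BAALC and ANGPT1. They were chosen by name, with earlier results of these data known, and the 10 symbols were looked up in a table of 19779 gene rows with a value in every library. All 10 were found, CD99 in a pair of rows. RNA was sequenced from 3 cultures of SET-2 OTX P/R cells and 3 cultures of SET-2 Parental cells. SET-2 cells are a long-established human line with megakaryoblastic features, described by the submitters as secondary AML. The OTX P/R line is its derivative that the submitters call OTX persister and resistant, OTX being read here as birabresib, an inhibitor of BET bromodomain proteins. The submitters call the 3 cultures of each line biologic replicates. All 6 cultures were untreated when RNA was taken in exponential growth, all in RPMI1640 with 20% fetal bovine serum, and the labels give neither genotypes nor transgenes. The labels name a single derivative line, so what came with resistance and other differences between the lines cannot be told apart.

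Leukemia stem cells are the cells of an acute leukemia that renew themselves and give rise to the bulk of blasts. They are followed by surface proteins shared with normal blood stem cells, such as CD34, CD133 (PROM1) and CD90 (THY1), by antigens that are more abundant on leukemic cells, such as CD99 and GPR56 (ADGRG1), and by transcriptional regulators of blood stem cells, such as MECOM. High MN1, BAALC or MECOM RNA marks groups of acute myeloid leukemia with a poor outcome, and the LSC17 signature is a published RNA score of stemness that includes CD34 and ADGRG1.

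The values are a normalized abundance per gene that the authors made equal in distribution over the libraries, so a value follows the rank of the gene within its library. The sums were 419375 to 419437 in the 6 libraries, the sequencing depth is unknown, and no counting interval can be given. Correlations of log2 values ran from 0.986 to 0.988 for pairs of libraries of 1 line and from 0.948 to 0.949 across the lines. Of the markers that define megakaryocytes, ITGA2B averaged 138 ± 3.73 in OTX P/R cells and 216 ± 11.5 in Parental cells (SD, n = 3 each), while PF4 was listed at 0 in all 6 libraries and VWF at no more than 0.0130. ITGA2B does not stand for the other markers. Of 11 tested as described below, it alone was called lower in OTX P/R cells, 7 were called higher and 3 did not pass.

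Among the 10 genes, CD34, ADGRG1 and CD7 were higher in OTX P/R cells and CD99 and ANGPT1 were lower, while PROM1, THY1, MECOM, MN1 and BAALC were too low to be tested. Genes were tested where the mean over the 6 libraries was at least 1, with limma on log2(value + 1), and called at a Benjamini-Hochberg adjusted p under 0.05 over all 10741 rows tested. Of the 10 genes 5 passed that filter, 3 were called higher and 2 lower. Of all tested rows 36.1% were called, 18.6% higher and 17.5% lower. ADGRG1 averaged below 1 in Parental cells and passed the filter through the OTX P/R libraries, so the count over the genes that passed is a description. In bulk RNA, more cells that express a gene and more RNA per cell cannot be told apart.

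Promoter sequences are shown for CD34 and CD99, the genes with the lowest adjusted p among those that were higher and lower, to set the regulatory DNA of a gene on each side beside its values. RefSeq (GRCh38.p14) gives 1 start for CD34, on the minus strand of chromosome 1. CD99 lies in the pseudoautosomal region, where the X and Y chromosomes carry the same DNA, and its X and Y windows in that table were identical in sequence. The 250 bases before the start run over chr1:207911126-207911375 on the minus strand for CD34 and over chrX:2691045-2691294 on the plus strand for CD99. Capitals mark the GC box GGGCGG on either strand, with overlapping matches joined.
CD34: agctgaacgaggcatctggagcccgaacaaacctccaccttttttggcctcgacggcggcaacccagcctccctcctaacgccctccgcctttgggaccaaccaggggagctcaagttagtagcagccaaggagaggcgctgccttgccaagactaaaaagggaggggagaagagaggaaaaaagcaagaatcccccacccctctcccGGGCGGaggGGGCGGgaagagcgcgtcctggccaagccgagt
CD99: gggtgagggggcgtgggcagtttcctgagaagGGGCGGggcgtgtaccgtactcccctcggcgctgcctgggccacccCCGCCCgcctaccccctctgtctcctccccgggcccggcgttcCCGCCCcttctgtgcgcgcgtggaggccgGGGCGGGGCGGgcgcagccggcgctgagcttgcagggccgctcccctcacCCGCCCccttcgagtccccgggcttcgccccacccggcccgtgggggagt

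The CD34 stretch held 2 GC boxes and 14 CpG dinucleotides, and the CD99 stretch 6 GC boxes, of which 2 overlap by a base, and 28 CpG dinucleotides. The median over all 35093 windows in the table was 11 CpG dinucleotides, and 44.9% of the 300-base windows held a GC box. Within 250 bases before to 50 after the start, and on both strands, neither gene held any of 5 other motifs. The letters AGATAA, bound by GATA factors such as GATA2, occurred in 10.3% of all windows. The letters CGGAAG, a core bound by factors of the ETS family, occurred in 19.5%. The letters TGTGGT, known as the site of RUNX proteins, occurred in 13.1%. The palindrome CACGTG, the E-box that MYC binds, occurred in 7.26%, and the letters CTTTGA, the core read by TCF and LEF proteins, in 12.9%. The 3 ADGRG1 windows held none of the 6 motifs. Windows were found for 5 of the 10 genes.

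CD34, the sialomucin used to select blood stem and progenitor cells, stood at 61.6, 63.7 and 64.9 in the OTX P/R libraries, against 28.8, 34.3 and 34.8 in the Parental libraries. Every OTX P/R library was above every Parental one. The means were 63.4 ± 1.63 in OTX P/R cells and 32.6 ± 3.34 in Parental cells (SD, n = 3 each), a ratio of 1.94. On the log2(value + 1) scale CD34 rose by 0.94 ± 0.08 SE (95% interval 0.74 to 1.14, limma adjusted p = 0.000383). By rank it lay above 94.2% to 94.5% of the rows of each OTX P/R library and above 87.5% to 89.6% of those of each Parental library. In size its fold change was number 736 among the 10741 tested rows.

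CD7, a surface antigen of T and NK cells that is also carried by some myeloid leukemia blasts, was the most abundant of the 10 genes in every library. Its values were 88.4, 99.6 and 90.9 in OTX P/R cells and 73.0, 74.3 and 72.9 in Parental cells. The groups did not overlap, and the change was small beside that of CD34. The log2 fold change was 0.34 ± 0.06 SE (interval 0.20 to 0.47, limma adjusted p = 0.00522). SECTM1, a secreted ligand of CD7, lay below the filter at 0.728 ± 0.102 in OTX P/R cells and 0.0510 ± 0.0317 in Parental cells (SD, n = 3 each).

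ADGRG1, the adhesion receptor GPR56, had values of 2.36, 4.78 and 2.28 in OTX P/R cells, against 0.714, 0.910 and 0.568 in Parental cells. OTX P/R replicate 2 was far above its fellow libraries, and all 3 were above the Parental ones. The log2 fold change was 1.21 ± 0.24 SE (interval 0.64 to 1.78, limma adjusted p = 0.00975). With a pseudocount of 0.1 in place of 1 the log2 fold change was 1.90, and with 5 it was 0.49, both called. Without OTX P/R replicate 2 the log2 fold change was 0.94 and the limma adjusted p = 0.00401. GENCODE places AC018552.3 antisense to ADGRG1 and AL356275.2 antisense to CD34, and whether the counting used strand is not given in the sources used here.

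**Figure D1:**
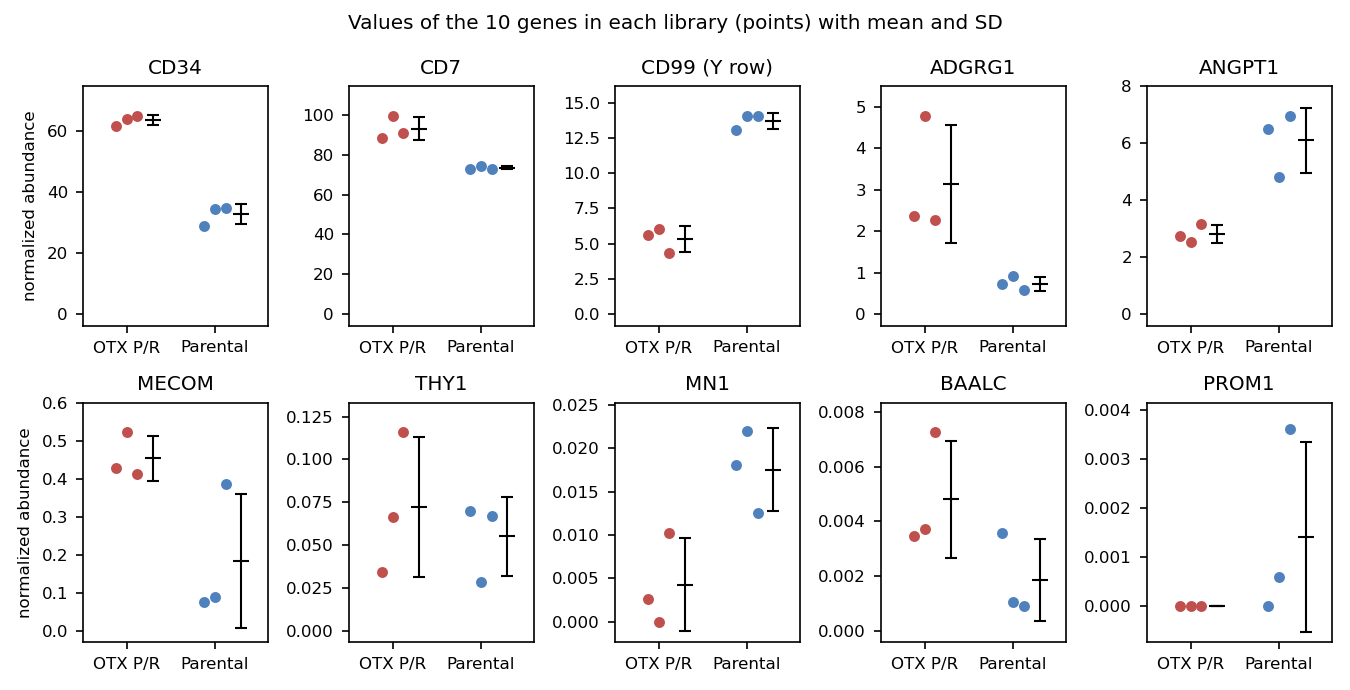
Normalized abundance (linear scale, a separate axis per gene) of each of the 10 genes in the 3 OTX P/R libraries (red) and the 3 Parental libraries (blue), with mean and SD in black. The groups are apart for CD34, CD7, ADGRG1, CD99, ANGPT1, MECOM and MN1, while THY1, BAALC and PROM1 overlap and lie at or below 0.116 in every library.

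CD99, a surface sialoglycoprotein, is listed once for the X copy and once for the Y copy of the gene in the reference. Whether the cells carry a Y chromosome was not tested. Because the copies are identical, the authors' counting had to divide its reads between them. Neither row can therefore be read as the expression of a single copy. The row of the Y copy, which has the higher mean, stood at 5.62, 6.03 and 4.30 in OTX P/R cells and at 13.1, 14.0 and 14.1 in Parental cells. The row of the X copy stood at 1.64, 1.47 and 4.66 in OTX P/R cells and at 3.80, 3.76 and 3.87 in Parental cells. OTX P/R replicate 3 thus had the lowest Y value and the highest X value of all libraries. The X row held 22.5%, 19.6% and 52.0% of the sum of both rows in the OTX P/R libraries, against 22.5%, 21.1% and 21.6% in the Parental libraries.

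Summed over both rows, CD99 was 7.26, 7.50 and 8.97 in OTX P/R cells and 16.86, 17.79 and 17.95 in Parental cells, and the groups were well apart. The sum, taken after the authors' normalization, averaged 7.91 ± 0.925 in OTX P/R cells and 17.5 ± 0.591 in Parental cells (SD, n = 3 each). It fell by 1.06 on the log2(value + 1) scale, ± 0.08 SE (interval -1.27 to -0.85, limma adjusted p = 0.000283). Taken alone, the Y row fell by 1.23 on that scale (SE 0.11, limma adjusted p = 0.000521). The X row missed the threshold, its log2 fold change being -0.53 (interval -1.31 to 0.24, limma adjusted p = 0.245). Without OTX P/R replicate 3 the X row passed too, at a log2 fold change of -0.92 and a limma adjusted p = 0.00130.

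**Figure D2:**
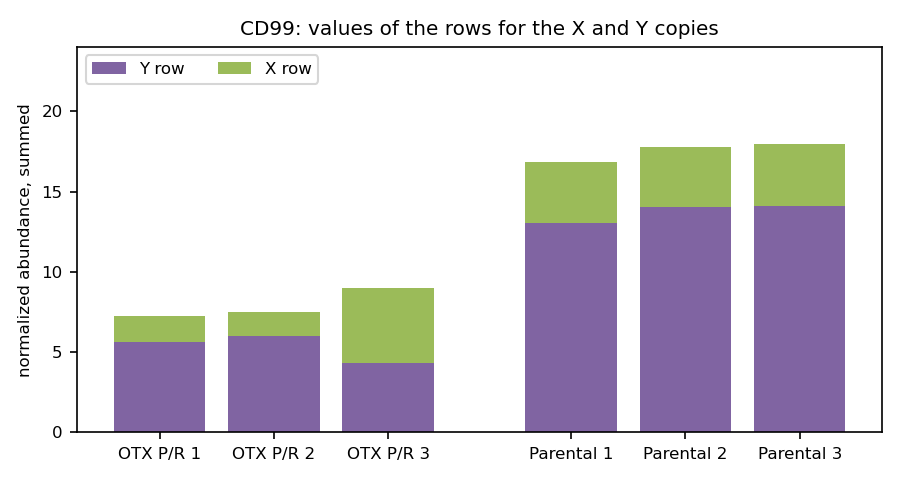
CD99 in each library as a stacked bar of the normalized abundance of its Y row (purple) and X row (green), OTX P/R cultures on the left and Parental cultures on the right. The sums are 7.26 to 8.97 in OTX P/R cells and 16.86 to 17.95 in Parental cells, and OTX P/R replicate 3 is divided unlike the other libraries.

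The other genes of pseudoautosomal region 1 show how the rows usually divide and how CD99's neighbours moved. Of 10 other such genes with a mean of at least 1 over both rows, 6 had an X share between 45% and 55% in every library, and the shares of all 10 ran from 28.2% to 58.0%. PPP2R3B, a phosphatase subunit whose share was singled out after its values were seen, had 31.8%, 28.5% and 49.8% in OTX P/R cells and 42.8%, 28.2% and 47.8% in Parental cells. The 11 genes of this region tested, CD99 included, were each counted by the row with the higher mean. Of them 4 rose, 2 fell and 5 did not pass, median 0.16. PLCXD1 did not pass by its Y row (limma adjusted p = 0.0510). It was called higher by its X row and by the sum of both rows (limma adjusted p = 0.0461 and 0.0314). ASMTL, next to the cytokine receptor genes of the region, rose by a log2 fold change of 2.48 ± 0.10 SE, CSF2RA, the alpha subunit of the GM-CSF receptor, by 1.12 ± 0.09 and P2RY8, a G protein-coupled receptor of B cells, by 0.99 ± 0.06. SLC25A6, a mitochondrial ADP/ATP carrier, fell by 0.16 in its Y row, while its X row did not pass (limma adjusted p = 0.275). Its sum over both rows was just under the threshold (limma adjusted p = 0.0497).

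Relatives and receptors of CD99 moved in both directions, with 1 of 3 tested higher and 2 lower, CD99 included, median -0.71. CD99L2, its closest relative, fell to 7.63 ± 0.351 in OTX P/R cells, against 13.2 ± 1.22 in Parental cells (SD, n = 3 each; log2 fold change -0.71 ± 0.08 SE, limma adjusted p = 0.00100). PILRB, an activating receptor whose mouse form binds a CD99-like protein, rose by a log2 fold change of 0.98 ± 0.19 SE. Its values were 8.69, 6.23 and 4.78 in OTX P/R cells and 2.41, 2.99 and 2.88 in Parental cells. PILRA, its inhibitory partner, and XG, a CD99-like blood group protein, were below the filter, at no more than 0.287 in any library.

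ANGPT1, the secreted ligand of the receptor TIE2 that keeps blood stem cells quiescent in the mouse niche, had values of 2.75, 2.53 and 3.17 in OTX P/R cells and of 6.51, 4.82 and 6.97 in Parental cells. The groups did not overlap, and Parental replicate 2 was the lowest of its group. ANGPT1 fell by 0.89 on the log2(value + 1) scale, ± 0.14 SE (interval -1.22 to -0.55, limma adjusted p = 0.00408), and with a pseudocount of 5 by 0.50. TEK, which encodes TIE2, was listed at 0 in all 6 libraries. TIE1, its co-receptor, stood at 32.5 ± 3.12 in OTX P/R cells and 30.0 ± 0.813 in Parental cells (SD, n = 3 each) and did not pass. ANGPT2, a second ligand of TIE2, had 2.44 ± 0.892 in OTX P/R cells and 2.76 ± 0.201 in Parental cells and was not called either (log2 fold change -0.16, limma adjusted p = 0.575). Of the 7 angiopoietin and TIE genes 3 were tested and only ANGPT1 was called, median -0.16; ANGPT4 was at 0 too.

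**Figure D3:**
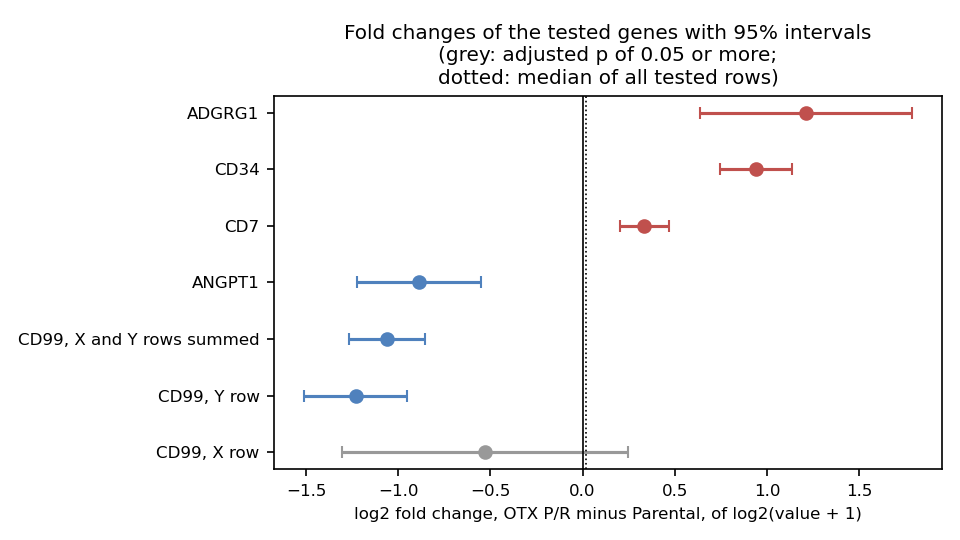
Log2 fold change (OTX P/R minus Parental, of log2(value + 1)) of the tested genes, with 95% limma intervals, CD99 being shown as its X row, its Y row and their sum. CD34, ADGRG1 and CD7 lie above 0, ANGPT1 and the Y row and sum of CD99 below it, and the interval of the X row, -1.31 to 0.24, includes 0.

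The transcriptional regulators were low in both lines. MECOM, the zinc finger factor EVI1 that sustains blood stem cells, had 0.428, 0.523 and 0.413 in OTX P/R cells and 0.0748, 0.0896 and 0.388 in Parental cells. Parental replicate 3 lay close to the OTX P/R libraries and the other Parental libraries far below them. When rows of all levels were tested, the log2 fold change of MECOM was 0.31 ± 0.11 SE with a limma adjusted p = 0.136. MN1, a coactivator whose overproduction drives myeloid leukemia in mice, had 0.00259, 0 and 0.0103 in OTX P/R cells and 0.0181, 0.0220 and 0.0125 in Parental cells. These values were near 0 in both groups, and the limma adjusted p was 0.0710 with rows of all levels.

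BAALC, a cytoplasmic protein of progenitor cells, did not exceed 0.00726 in OTX P/R cells or 0.00359 in Parental cells. PROM1, which encodes the membrane protein CD133, was listed at 0 in all 3 OTX P/R libraries and at 0, 0.000590 and 0.00362 in the Parental ones. THY1, the anchored surface protein CD90, had 0.0343, 0.0663 and 0.116 in OTX P/R cells and 0.0698, 0.0286 and 0.0671 in Parental cells, so the groups overlapped. With rows of all levels the limma adjusted p was 0.229 for BAALC, 0.462 for PROM1 and 0.748 for THY1. At these levels a difference was not detectable, and the annotation lists other genes on BAALC, MECOM, THY1 and PROM1 whose reads could be shared.

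Of the 10 genes, all OTX P/R libraries were above all Parental ones for CD34, CD7, ADGRG1 and MECOM and below them for CD99 (Y row), ANGPT1 and MN1. Among all tested rows, which leave out MECOM and MN1, the libraries were apart in 51.6%, upward in 26.8% and downward in 24.9%. The scale is taken to be per transcript length, as StringTie abundances are, so levels can be set side by side. In OTX P/R cells the order was CD7, CD34, CD99, ADGRG1, ANGPT1, MECOM, THY1, BAALC, MN1 and PROM1. ADGRG1 overlapped there with the Y row of CD99 above it and ANGPT1 below it, BAALC with MN1, and MN1 with PROM1 at 0. Summed over both rows, CD99 stood at 7.26 to 8.97 in OTX P/R cells, above every ADGRG1 value. In Parental cells the order was CD7, CD34, CD99, ANGPT1, ADGRG1, MECOM, THY1, MN1, BAALC and PROM1, and the only neighbours that overlapped were BAALC and PROM1.

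The genes most like CD34 over the 6 libraries, by the distance between log2 values centred on each gene's mean, were PGLYRP4, HILPDA, HSPA2, BEX1 and RAB32, at distances of 0.082 to 0.160. BEX1 averaged 127.5 ± 2.73 in OTX P/R cells and 63.5 ± 3.16 in Parental cells (SD, n = 3 each), and HILPDA, a lipid droplet protein, 10.1 ± 0.202 in OTX P/R cells and 5.19 ± 0.757 in Parental cells. With 2 groups, the distance mostly reflects the difference between them.

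Genes known to act with these proteins were counted in the same fit, in which the median log2 fold change of all tested rows was 0.02. Some genes passed the filter only through the group in which they are high, so the counts and medians of the lists are descriptions. Among those named, ADGRG1, MMRN1, CD93, PRDM8, ALDH2 and P2RY8 averaged below 1 in Parental cells, and RXRA, CD3D, GZMB and ITGAX averaged below 1 in OTX P/R cells. In the list of CD34, its family and its binding partners 2 of 3 tested genes rose, CD34 included. The median of 0.94 is the value of CD34 itself. PODXL, the sialomucin podocalyxin, rose to 6.62 ± 0.264 in OTX P/R cells, against 1.99 ± 0.529 in Parental cells (SD, n = 3 each; log2 fold change 1.36 ± 0.13 SE, limma adjusted p = 0.000645). The adaptor CRKL did not pass. The sialomucins EMCN and PODXL2 were below the filter, at no more than 0.785.

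Of 16 tested ligands, partners and relatives of ADGRG1, itself included, 5 rose, 2 fell and 9 did not pass, median 0.15. TGM2, a transglutaminase that binds GPR56, rose to 66.6 ± 1.46 in OTX P/R cells, against 37.3 ± 1.70 in Parental cells (SD, n = 3 each). GNA11, a G protein alpha subunit, rose by 0.73 on the log2 scale. PLVAP, an endothelial membrane protein, fell to 1.77 ± 0.185 in OTX P/R cells, against 7.00 ± 0.222 in Parental cells. GNAQ fell by 0.30 on the log2 scale.

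Of 9 tested MECOM cofactors and PRDM proteins 1 rose and 8 did not pass, median 0.23. The one that rose was PRDM8, at 3.69 ± 0.562 in OTX P/R cells and 0.330 ± 0.0475 in Parental cells (SD, n = 3 each). PRDM16, the closest relative of MECOM, was listed at 0 in all libraries, and HDAC1, a deacetylase in corepressor complexes, did not pass (log2 fold change 0.06). Of 10 tested genes tied to MN1 or BAALC 3 rose, 3 fell and 4 did not pass, median 0.01. RXRA, a retinoid receptor, was 0.0292, 0.0354 and 0.0341 in OTX P/R cells and 4.29, 3.72 and 4.05 in Parental cells, a log2 fold change of -2.28 ± 0.07 SE. RARA, the retinoic acid receptor alpha, fell by 0.37 on the log2 scale. MAP3K1, a kinase that binds BAALC, rose by a log2 fold change of 0.56, MAPK3 by 0.43 and ETV6, a repressor of the ETS family, by 0.25. KLF4, a factor that BAALC holds back, was listed at 0 in all libraries.

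Of 7 tested binding partners of THY1, 2 rose, 1 fell and 4 did not pass, median -0.05. The integrin chain ITGB3 rose by 1.92 on the log2 scale and ITGB2 by 0.78, and ITGAM fell by 1.04. Around PROM1, the relative PROM2 and the related TTYH1 were below the filter, TTYH3, a membrane protein, was higher by 1.32 ± 0.07 SE on the log2 scale, and TTYH2 fell by 0.67. PROM2 and TTYH1 did not exceed 0.0691 in any library.

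The wider stem cell lists moved in both directions. The LSC17 signature had 13 tested genes, of which 6 rose, CD34 and ADGRG1 included, 3 fell and 4 missed the threshold (median 0.22). Of its 17 genes FAM30A was not found and 3 were below the filter. The score itself, with its weight for each gene, was not computed. The counts therefore do not say whether it was higher or lower in OTX P/R cells. MMRN1, a multimerin of platelets and endothelium, rose to 2.80 ± 0.0493 in OTX P/R cells, against 0.144 ± 0.0266 in Parental cells (SD, n = 3 each). AKR1C3, a steroid and prostaglandin reductase, fell to 22.6 ± 0.0872 in OTX P/R cells, against 57.3 ± 2.78 in Parental cells. SOCS2, a feedback inhibitor of cytokine signals, fell by 0.75 on the log2 scale, and CDK6, a cell cycle kinase, fell by 0.74.

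Of 13 tested surface antigens of leukemia stem cells, CD99 included, 4 rose, 6 fell and 3 did not pass, median -0.10. FCGR2A, an Fc receptor, had 34.2, 28.97 and 37.8 in OTX P/R cells and 20.7, 16.2 and 18.1 in Parental cells. CD93 and the hyaluronan receptor CD44 rose as well (log2 fold change 0.79 and 0.67). PTPRC, which encodes the pan-leukocyte antigen CD45, had 8.46, 8.77 and 9.31 in OTX P/R cells and 15.3, 23.6 and 28.3 in Parental cells. The stem cell factor receptor KIT fell by 0.95 on the log2 scale. FLT3 was listed at 0 throughout, and CD38, singled out after its values were seen, did not exceed 0.0153 in any library.

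Of 24 tested transcription factors of stem and progenitor cells 12 rose, 2 fell and 10 did not pass, median 0.33. FLI1, an ETS factor of megakaryocytes, rose to 33.1 ± 1.55 in OTX P/R cells, against 12.1 ± 0.779 in Parental cells (SD, n = 3 each). HOXA5 rose by 0.83 on the log2 scale. SOX4 and GFI1 fell by 0.58 and 0.48 on that scale. Of 9 tested quiescence and detoxification genes 1 rose, 3 fell and 5 did not pass, median -0.17. ALDH2, a mitochondrial aldehyde dehydrogenase, rose by 1.03 on the log2 scale, and ALDH1A1, the aldehyde dehydrogenase used to sort stem cells, fell by 0.66, FOXO1 fell by 0.45 and TXNIP fell by 0.40. Of 6 tested BET inhibitor response genes 3 rose and 3 fell, median 0.09. CDK6 and KIT are both among those that fell, and the others are not reported here. The genes were counted without regard to the direction in which such an inhibitor moves each of them. The count and median therefore do not describe a response to it.

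**Figure D4:**
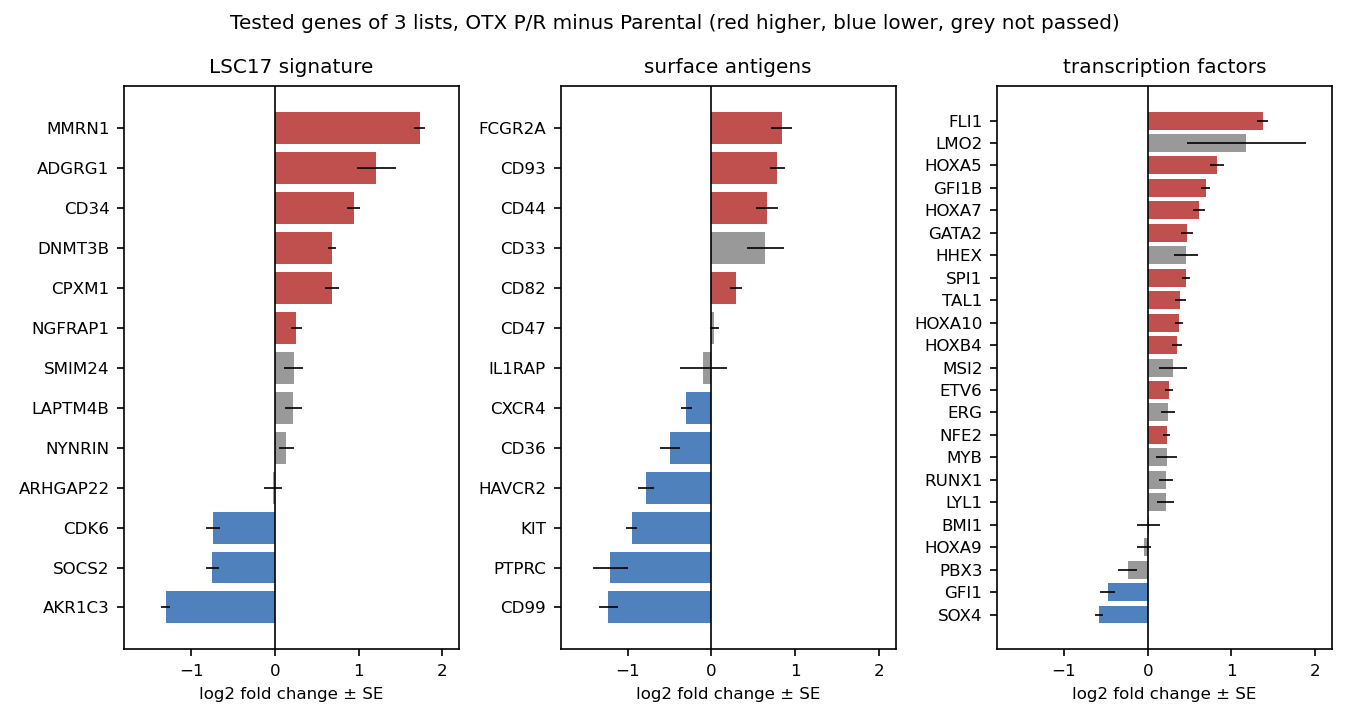
Log2 fold change (OTX P/R minus Parental) with its SE of the tested genes of the LSC17 signature, the surface antigens and the transcription factors, coloured by call. Each list holds genes on both sides of 0, from AKR1C3 at -1.31 to MMRN1 at 1.73, CD99 is drawn as its Y row, and 1 tested transcription factor is not drawn.

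Markers of other cell types were read beside these genes, and their part in the results was not tested. Beside CD34, which endothelium also carries, the summed value of 11 endothelial markers was 132.0 to 138.7 in OTX P/R cells and 60.5 to 66.5 in Parental cells. Most of the gap between these sums was ESAM, at 76.4 ± 2.39 in OTX P/R cells and 11.6 ± 2.54 in Parental cells (SD, n = 3 each). Of 5 tested markers ESAM and PECAM1, both also made by platelets, rose, PLVAP fell and TIE1 and ERG did not pass, median 0.24. TEK was at 0, and KDR and VWF did not exceed 0.0400 in any library. CDH5, the cadherin of endothelial junctions, was below the filter and apart between the groups, at 0.232, 0.266 and 0.236 in OTX P/R cells and 0, 0.00286 and 0.00363 in Parental cells. EMCN was apart too, at 0.157 ± 0.0159 in OTX P/R cells and 0.0737 ± 0.0100 in Parental cells (SD, n = 3 each). Beside CD7, the summed value of 17 T and NK cell markers was 100.1 to 104.1 in OTX P/R cells and 174.3 to 188.4 in Parental cells, and of 6 tested 5 fell, GZMB, CD3D and GNLY the most, median -1.26. None of the 17 was at 0 in all libraries, and CD3E, CD3G and LCK averaged at most 0.0254 in either group.

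Beside THY1 and ANGPT1, the sum of 11 stromal markers was 26.3 to 28.4 in OTX P/R cells and 24.95 to 26.03 in Parental cells. Of 2 tested ACTA2 rose, median 0.32, FAP was at 0, and DCN, LUM and COL3A1 averaged at most 0.0252. Most of the sum was ENG, also a marker of endothelium, at 22.0 ± 1.23 in OTX P/R cells and 23.6 ± 0.194 in Parental cells (SD, n = 3 each), which did not pass. The collagen gene COL1A1, below the filter, had 1.90, 1.99 and 1.86 in OTX P/R cells and 0.0585, 0.114 and 0.0466 in Parental cells, so its groups were apart. Of 11 tested megakaryocyte markers 7 rose, 1 fell and 3 did not pass, median 0.54, with sums of 759.0 to 765.2 in OTX P/R cells and 694.1 to 714.3 in Parental cells. GP1BA, a chain of the platelet receptor for von Willebrand factor, had a log2 fold change of 1.66. Of 13 tested erythroid markers 6 rose, 4 fell and 3 did not pass, median 0.13, and the sum of all 15 was 7480 to 8033 in OTX P/R cells and 8342 to 9471 in Parental cells. Of 4 tested myeloid maturation markers 3 fell, ITGAX, CD68 and ITGAM, median -1.06, and S100A8 and CEACAM8 were at 0; the sum of the 14 was 195.2 to 218.5 in OTX P/R cells and 327.9 to 357.0 in Parental cells.

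The tested genes around the 5 called genes were read as well, with up to 12 on either side along the chromosome. Around CD34 on chromosome 1 the median log2 fold change was 0.05, with 5 of 24 neighbours higher and 5 lower. Around ADGRG1 on chromosome 16 it was 0.14, with 7 of 24 higher and 1 lower. Around CD7 on chromosome 17 it was 0.18, with 7 of 24 higher and 1 lower, beside 0.34 for CD7 itself. For ANGPT1 on chromosome 8 the median was -0.04, with 4 of 24 higher and 3 lower, and for CD99 on chromosome X it was 0.03, with 9 of 22 higher and 3 lower. Whether a gene moved with its neighbours was not tested.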

How the data were processed

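The submitters' processing notes name Trim Galore, HISAT2, StringTie and build hg19, with no versions. The values deposited by the authors are a signal on a linear scale, taken to be StringTie abundance per gene; FPKM or TPM is not stated. Libraries have nearly the same sorted values (largest difference 0.243%, at values from 1 up), as quantile normalization gives. Of 19785 rows 6 had a missing value and were left out. Groups and replicate numbers come from the sample titles.

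Rows with a mean of at least 1 were fitted as log2(value + 1) with limma 3.58.1 in R 4.3.3 (trended prior, Benjamini-Hochberg adjustment over the 10741 rows, two-sided). Fold changes on this scale understate those of low genes, and p-values measure the spread between cultures. Exact permutation of 3 libraries against 3 cannot go below p = 0.1. A repeated symbol is given by its row with the higher mean. Alternatives were other pseudocounts, filters, priors, centring, summed rows, a replicate block and each library left out. The fit was tested on simulated data.

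The members and gene lists were chosen with earlier results of these data known. Up to 3 called genes per direction and list are named, and every gene of lists of 6 or fewer. The counts cover whole lists, and some genes in them are not reported here. GENCODE 29 (GRCh38) gave only gene order and overlaps and matched 19546 rows. Python 3.11.15, pandas 2.3.3, NumPy 2.4.6 and Matplotlib 3.10.9 were used.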

Additional observations from a re-analysis of the deposited data

How the results depend on the processing

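CD34, CD7, ADGRG1 and ANGPT1 kept their direction and their call with a pseudocount of 0.1 or 5, no filter, other priors, centring on the median, summed rows, the replicate block and each library left out, and CD34 and CD7 also with a minimum mean of 5, where ADGRG1 and ANGPT1 are not tested and 1 gene, CD99, is lower. The pseudocount moved the size: with 0.1 and 5 the log2 fold change was 1.90 and 0.49 for ADGRG1 and -1.08 and -0.50 for ANGPT1. CD99 kept its call except where its X row stands for it, an alternative chosen after seeing the data (log2 fold change -0.53, limma adjusted p = 0.245), which leaves 1 gene called lower. With each library left out the log2 fold change was 0.86 to 0.99 for CD34, 0.29 to 0.37 for CD7, 0.94 to 1.35 for ADGRG1, -1.02 to -0.80 for ANGPT1 and -1.31 to -1.11 for CD99, and the number of called rows 3029 to 3453, against 3879 with all 6. With the replicate block 3159 rows were called, with 3 of the genes higher and 2 lower; same-numbered libraries did not deviate together (correlations -0.065, -0.028 and -0.000294), so the numbers were not taken as pairs. Ranks, not molecules, are kept by the normalization, and the depth that limits PROM1, THY1, MECOM, MN1 and BAALC is unknown.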
